A study of Homo sapiens with 6 samples.

Results

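The genes described here are SPARC and other matricellular or fibrillar matrix genes, taken by symbol from a list of 10: SPARC, POSTN, CCDC80, THBS1, TNC, CTGF, CYR61, FN1, FBN1 and THY1. Of these, 9 were rows of the authors' deposited table of 15794 human genes, and TNC, which encodes the matricellular protein tenascin-C, was not a row of it. The list was drawn up with the fold changes of this same comparison in view. The members' values are therefore a description, and their number on either side of 0 supports nothing by itself.

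The cells were eHAP, a fully haploid human line engineered from HAP1 cells, which trace back to a chronic myeloid leukaemia. Cas9-expressing eHAP cells received a plasmid with guide RNAs and puromycin resistance, were selected with puromycin from 24 to 72 h, and were collected for poly(A) RNA sequencing at 5 days. The 6 samples were 3 biological replicates labelled as TFDP1 knockout and 3 labelled wild-type with no knockout gene (NC in the titles). Both groups carried Cas9, the guides of the NC cells are not described in the labels, and no clone is named in either group. Each sample held 500000 eHAP cells and 10000 Drosophila S2 cells, added as a spike-in. TFDP1 encodes DP1, which pairs with E2F transcription factors so that they can bind DNA, and the comparison asked which transcripts differ when TFDP1 is targeted.

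Each gene has 1 log2 fold change between the groups, 1 mean level in log2 CPM (counts per unit of library size), a likelihood ratio, and p-values before and after adjustment for multiple testing (FDR), all made by the authors. No values of single samples were used here, so the depth of each library is unknown and no value has a replicate SD of its own. TFDP1 itself had a log2 fold change of 1.17 in the authors' deposited table, at a mean of 226 CPM (adjusted p = 1.08e-283, likelihood ratio test of edgeR). The table does not name its numerator, and the level of an edited transcript does not settle it, because a Cas9 cut can disrupt a protein without reducing its mRNA. Directions are therefore given against TFDP1. A negative gene was lower in the group with more TFDP1 transcript. Which of the groups, control or knockout, had more of it is not stated in the sources used here.

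Matricellular proteins are secreted into the extracellular matrix but act mainly as regulators of how cells attach, migrate and receive growth factors, rather than as load-bearing fibres. SPARC, periostin, thrombospondin, tenascin and the CCN proteins belong to this class. Fibronectin and fibrillin assemble into fibres outside the cell, which carry integrin-binding sites and store growth factors of the TGF-beta family. The CCN genes CTGF and CYR61 are widely used readouts of YAP and TAZ, coactivators that bind DNA through TEAD factors.

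All 9 genes had an adjusted p under 0.05 in the authors' deposited table, 8 with a negative and 1 with a positive log2 fold change. Over all 15794 genes, 39.5% passed, 22.2% negative and 17.3% positive. SPARC, THY1, POSTN, THBS1 and CCDC80 were lower by 2.95-fold to 11.1-fold in the group with more TFDP1 transcript. The CCN genes CYR61 and CTGF were lower by 1.65-fold and 1.39-fold, and the fibrous proteins moved least, FBN1 negative by 1.13-fold and FN1 positive by 1.19-fold. Changes that passed and reached 2-fold were found in 5 members, all negative, whereas 3.65% of all genes were negative and 0.779% positive by that rule. The median of the members was -1.56 and that of all genes -0.03. In bulk RNA, fewer cells that express a gene and less RNA per cell cannot be told apart.

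**Figure D1:**
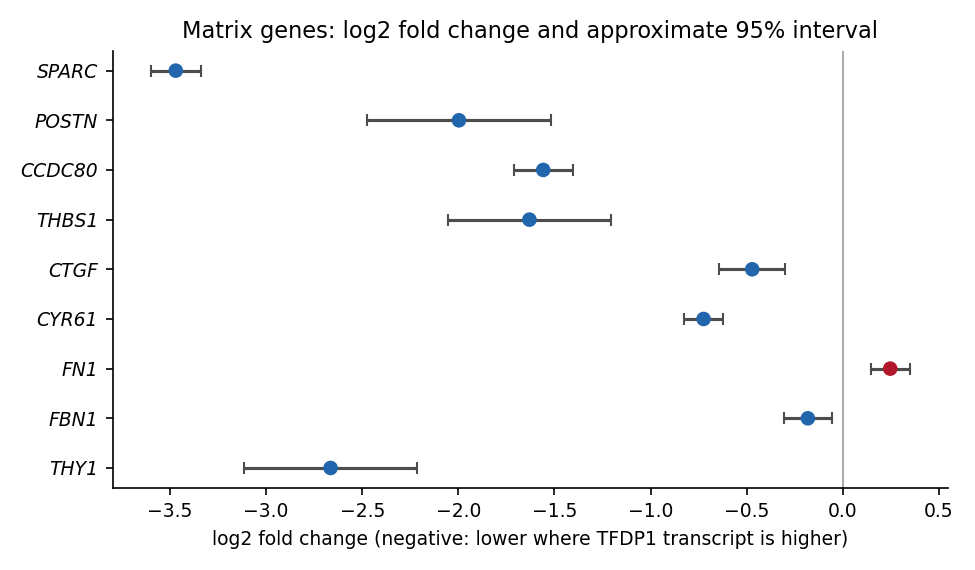
Log2 fold change (horizontal axis) of the 9 matrix genes (vertical axis) in the authors' deposited table, with bars for an approximate 95% interval. SPARC lies at -3.47, 4 genes lie between -2.66 and -1.56, and FN1 is at 0.25, to the right of 0.

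Promoter sequence is shown for members with a match to the core of a TEAD site, GGAATG on either strand, in the 250 bases upstream of the RefSeq transcription start (GRCh38.p14). RefSeq promoters were matched for 8 of the 10 listed genes, and CYR61 and THY1 were not among them. Of the 8, 4 held the TEAD core: CTGF, THBS1, FBN1 and SPARC. Among all 35116 RefSeq promoter windows of this length, 11.9% held it. Capitals mark the TEAD core, and in SPARC also an overlapping E2F site core (TTCCCGC). Each run is printed 5′ to 3′ on the strand of the gene.
CTGF, chr6:131951374-131951622, minus strand: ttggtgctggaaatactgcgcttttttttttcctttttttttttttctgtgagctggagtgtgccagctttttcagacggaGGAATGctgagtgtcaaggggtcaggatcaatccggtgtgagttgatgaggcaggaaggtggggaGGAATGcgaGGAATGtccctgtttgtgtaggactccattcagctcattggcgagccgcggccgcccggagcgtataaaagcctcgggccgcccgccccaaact
THBS1, chr15:39580979-39581078, plus strand: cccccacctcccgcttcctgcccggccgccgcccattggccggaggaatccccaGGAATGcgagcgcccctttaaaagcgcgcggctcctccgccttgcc
FBN1, chr15:48645009-48645038, minus strand: gttgggcttgGGAATGgggaccgcgaggct
SPARC, chr5:151686916-151686945, minus strand: ctaaacccctccaCATTCCCGCggtccttc

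CTGF held 3 copies of the TEAD core, beginning 169, 104 and 95 bases upstream of the start. THBS1 held 1 copy, beginning 46 bases upstream, and FBN1 1 copy, beginning 58 bases upstream. In SPARC the core lay on the opposite strand, from 17 to 12 bases upstream, and the E2F core from 15 to 9 bases upstream shared 4 of its bases. The RefSeq start of SPARC is not its furthest one, since all 250 bases upstream lie in an exon annotated in GENCODE 29. FBN1 also extends further upstream in GENCODE 29, to position 48645849. Its printed stretch thus lies inside the annotated gene, although its window holds 0 exon bases. Annotated exons, counted for any gene on either strand, also cover 161 of the 250 bases in FN1, 157 in CCDC80, 100 in TNC and 76 in POSTN. The E2F core TTCCCGC was found in 5.52% of all windows and in 2 of the 8 listed genes, SPARC and TNC, and the core TTGGCGC in 2.56% of all windows and in THBS1.

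Other motifs divided the members differently. POSTN held 1 AP-1 site (TGANTCA, 6.57% of all windows), and POSTN and CTGF held a TATA box (TATAAA, 10.7%) beginning 29 and 32 bases upstream. A GC box (GGGCGG, 42.6%) was found in CTGF, THBS1, TNC and FN1, with 6 copies in FN1, some of which overlap. The short SMAD core CAGAC, present in 38% of windows, was found in 5 of the 8. The SRF site known as the CArG box was found in 1.16% of windows and in 0 of the 8 genes. All motifs were searched on both strands. A match is a run of letters and not a measured binding site.

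SPARC (chromosome 5, positions 151661096 to 151687165 of GRCh38, minus strand, protein coding in GENCODE 29) encodes osteonectin, a calcium- and collagen-binding glycoprotein. Its mean level was 59.0 CPM and its log2 fold change -3.47, 11.1-fold lower with more TFDP1 transcript, in the authors' deposited table. An approximate 95% interval, from a standard error taken as the absolute log2 fold change over the square root of the likelihood ratio, ran from 10.1-fold to 12.1-fold. Its p and adjusted p are listed at 0. Taking the mean level and fold change together, SPARC stood at about 9.77 CPM where TFDP1 transcript was higher and 108 CPM in the other group, that is, at 9.03% of the higher level. Among 2696 genes within 0.5 log2 CPM of its level, 1 had a lower log2 fold change. That gene, named after its value was seen, was APOE.

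POSTN (chromosome 13, positions 37562583 to 37598844, minus strand) encodes periostin, which binds integrins and helps to organise collagen fibres. It was scarce, with a mean of 2.30 CPM, and had a log2 fold change of -2.00 in the authors' deposited table (adjusted p = 6.7e-15, edgeR). The approximate levels were 0.921 CPM with more TFDP1 transcript and 3.68 CPM with less. Its interval was wide, from 2.87-fold to 5.56-fold lower, and among 865 genes of like level 13 had a lower log2 fold change.

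CCDC80 (chromosome 3, positions 112596794 to 112649530, minus strand) encodes a secreted protein that associates with the matrix. At a mean of 27.2 CPM it had a log2 fold change of -1.56 in the authors' deposited table (adjusted p = 2.08e-86, edgeR). That corresponds to about 13.8 against 40.7 CPM, with an interval of 2.65-fold to 3.27-fold. Of 2208 genes of like level, 1 lay lower.

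THBS1 (chromosome 15, positions 39581079 to 39599466, plus strand) encodes thrombospondin-1, which activates latent TGF-beta and binds CD47 and CD36. Its mean level was 2.93 CPM and its log2 fold change -1.63 in the authors' deposited table (adjusted p = 8.26e-13, edgeR). The approximate levels were 1.43 CPM with more TFDP1 transcript and 4.43 CPM with less, and the interval ran from 2.31-fold to 4.15-fold. Of 916 genes of like level, 30 lay lower. THBS1 shares 448 exon bases with FSIP1 on the opposite strand, and the sources used here do not say whether reads were counted by strand. Reads of these overlapping genes, of which FSIP1 is named only for the overlap, might therefore not have been told apart. FSIP1 was at 0.957 CPM with a log2 fold change of 0.35 (adjusted p = 0.501) in the authors' deposited table. The strand limit also holds for other members. Further opposite-strand genes share 632 exon bases with THY1, 381 with SPARC, 195 with CTGF and 411 with THBS1. None of these further genes was a row of the authors' deposited table.

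CYR61 (chromosome 1, positions 85580761 to 85583962, plus strand) and CTGF (chromosome 6, positions 131948176 to 131951373, minus strand) encode the CCN proteins now called CCN1 and CCN2, which bind integrins and heparan sulphate. CYR61 was the most abundant member by CPM, at a mean of 410 CPM, with a log2 fold change of -0.72 in the authors' deposited table (adjusted p = 4.22e-43, edgeR). Its approximate levels were 309.6 CPM with more TFDP1 transcript and 511 CPM with less. CTGF, at a mean of 101 CPM, had a log2 fold change of -0.47 (adjusted p = 8.68e-07, edgeR), or about 84.5 against 117 CPM. Both were negative, but CTGF was measured less precisely than its level would give. Its approximate standard error was 0.088, 1.64 times the median of 0.054 over 2175 genes of like level. For CYR61 that ratio was 1.21, and for the other 7 members it lay between 0.941 and 1.13. The approximate intervals of the CCN genes, from 1.54-fold to 1.77-fold for CYR61 and from 1.23-fold to 1.56-fold for CTGF, overlapped.

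FN1 (chromosome 2, positions 215360440 to 215436172, minus strand) encodes fibronectin, the ligand of integrin alpha5 beta1 and an early scaffold of the matrix. It was the member with the opposite sign, with a log2 fold change of 0.25 at a mean of 93.9 CPM in the authors' deposited table (adjusted p = 1.27e-05, edgeR). Its approximate levels were 102 CPM with more TFDP1 transcript and 85.9 CPM with less. FBN1 (chromosome 15, positions 48408306 to 48645849, minus strand) encodes fibrillin-1, the main protein of microfibrils. With a log2 fold change of -0.18 at 60.3 CPM (adjusted p = 0.0168, edgeR), it differed by little, at about 56.5 against 64.1 CPM. Changes of this size were common: of 2686 genes of like level 563 lay lower than FBN1, and of 2287 genes of like level 259 lay higher than FN1. The call of FBN1 was lost at an adjusted p of 0.01 and when the median of the ribosomal protein genes was set to 0, where its log2 fold change was -0.10.

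THY1 (chromosome 11, positions 119417378 to 119424985, minus strand) encodes CD90, a surface glycoprotein held by a lipid anchor that binds integrins and is used as a marker of fibroblasts and mesenchymal cells. It was second to SPARC among the members in size of change, with a log2 fold change of -2.66 in the authors' deposited table (adjusted p = 3.12e-29, edgeR). At a mean of 2.97 CPM this meant about 0.809 CPM with more TFDP1 transcript and 5.13 CPM with less. The interval ran from 4.64-fold to 8.66-fold, and 7 of 914 genes of like level lay lower.

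**Figure D2:**
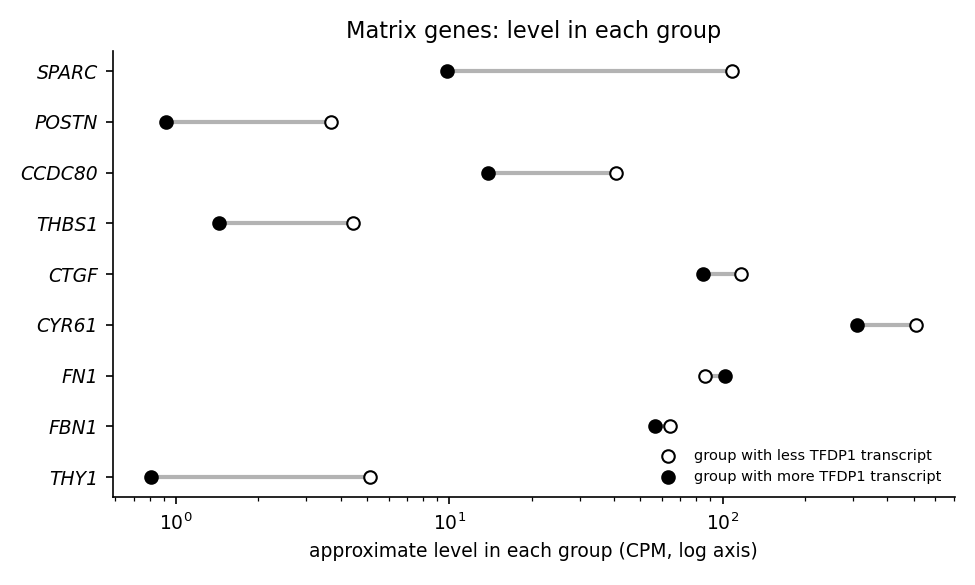
Approximate level of each matrix gene (vertical axis) in the group with more TFDP1 transcript (filled) and less (open), in CPM on a log axis, computed from the authors' mean level and fold change. SPARC spans 9.77 to 108 CPM, whereas FN1 and FBN1 span 85.9 to 102 and 56.5 to 64.1 CPM.

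Ordered by fold change, SPARC and THY1 did not overlap in their approximate 95% intervals. THY1, POSTN, THBS1 and CCDC80 each overlapped the next in that order, and CCDC80 and CYR61 did not overlap. CYR61 overlapped CTGF, CTGF overlapped FBN1, and FBN1 and FN1 did not overlap. These intervals come from the same 6 samples and are not independent. The order of levels was another one. Per kilobase of annotated exon, the mean level was 167 CPM for CYR61, 43.1 for CTGF, 12.2 for SPARC, 5.42 for FN1, 3.75 for FBN1 and 2.08 for CCDC80. THY1, POSTN and THBS1 had per-kilobase levels of 0.501, 0.421 and 0.320 CPM. These last 3 were the members under 5 CPM, and all of them were among the 5 members that differed by over 2-fold.

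**Figure D3:**
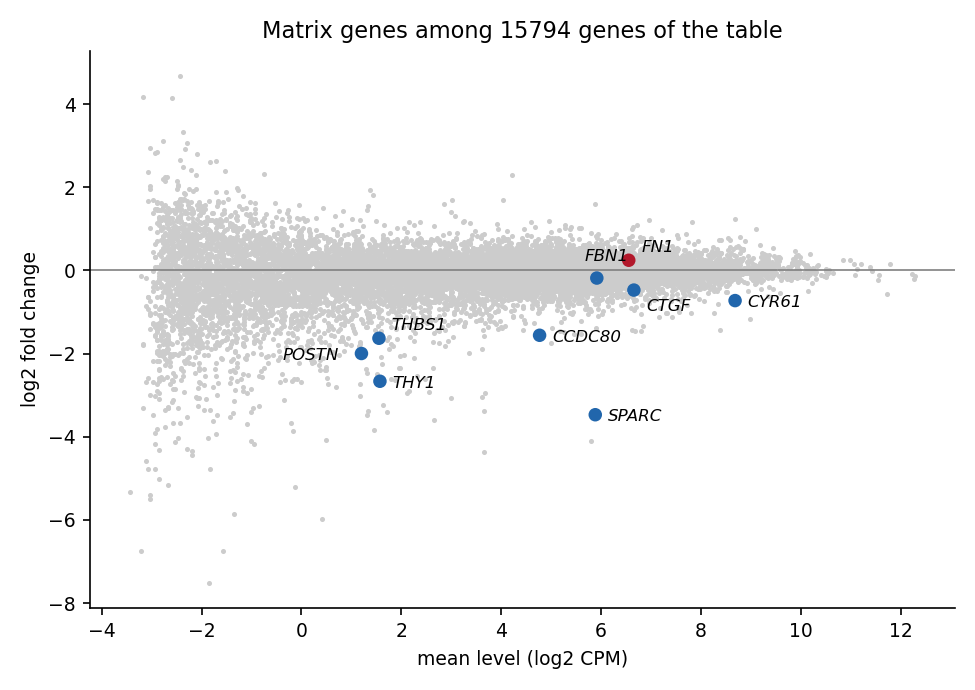
Log2 fold change (vertical axis) against mean level in log2 CPM (horizontal axis) for all 15794 genes (grey), with the 9 matrix genes coloured. SPARC, at -3.47, and CCDC80, at -1.56, lie below nearly all genes of their level, while POSTN, THBS1 and THY1 lie where the spread of all genes is wider.

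Chromosomal neighbours, which the list did not hold, are given as a description. For each member, the 3 nearest genes of the table on each side were taken, by the midpoint of the gene in GENCODE 29. Of these 54 neighbours 16 were negative, 13 positive and 25 not called, and their median was -0.01. The called share, 53.7%, stands against 39.5% of all genes. Around SPARC, the 6 neighbours ranged from -0.26 to 0.72, the upper end being FAT2 at 0.634 CPM, which was not called. The 1 negative call was GM2A, 391 kb away, and the 1 positive call was FAM114A2, 2303 kb away. ATOX1 (-0.20, 55.2 kb away) and G3BP1 (0.03, 83.9 kb away) were not called. Around THBS1 the neighbours ranged from -0.14 to 0.35, and around CTGF their median was 0.26, with 2 negative and 2 positive. Of the 6 around POSTN 4 were positive, ALG5 (0.23), EXOSC8 (0.49), SUPT20H (0.13) and UFM1 (0.21), and 2 negative. One of these, TRPC4, a cation channel gene 37.8 kb from POSTN, had a log2 fold change of -1.11 in the authors' deposited table. CD200, a surface glycoprotein gene 234 kb from CCDC80, had one of -1.19 in the authors' deposited table. CYR61 lies 2.40 kb from DDAH1, an enzyme gene of methylarginine breakdown. DDAH1 had a log2 fold change of -0.68 at 186 CPM in the authors' deposited table (adjusted p = 8.49e-55, edgeR), close to the -0.72 of CYR61. The genes named here were chosen after their values were seen.

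**Figure D4:**
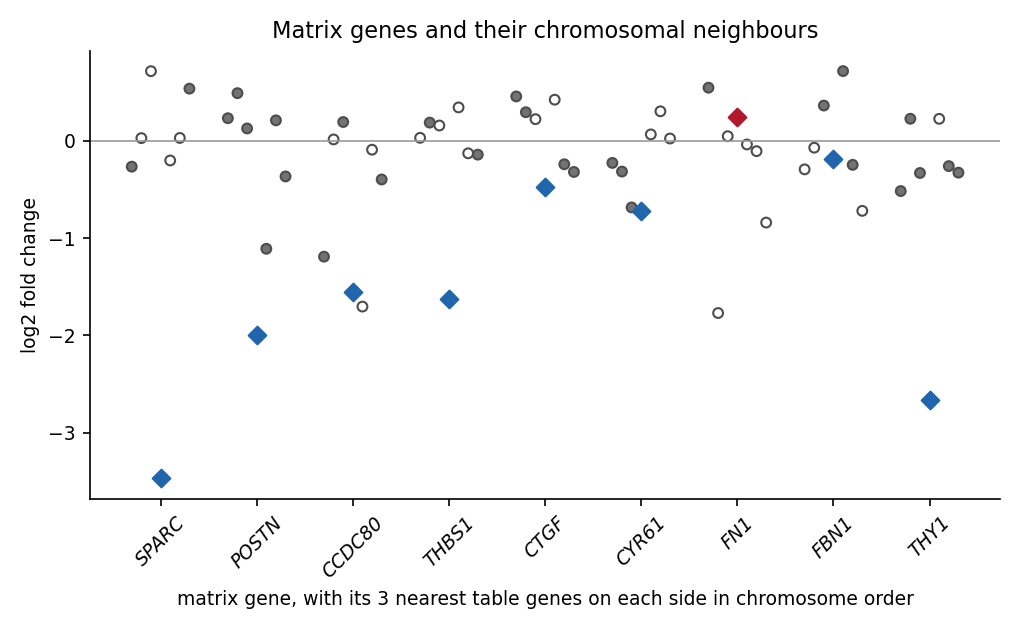
Log2 fold change (vertical axis) of each matrix gene (diamond) and of its 3 nearest table genes on each side (circles, filled where the adjusted p was under 0.05), in chromosome order. The neighbours of SPARC lie between -0.26 and 0.72, far above SPARC at -3.47, whereas a circle next to CYR61, DDAH1, lies at -0.68.

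Relatives of the members did not share 1 direction. Over all genes, 22.2% were negative, 17.3% positive and 39.5% called in all, which holds for each list that follows. Among the measured SPARC-family genes besides SPARC, 5 in number, FSTL1 (0.18) and SPOCK1 (0.70) were positive, SPARCL1 (-0.73) was negative and 2 were not called. The calls of SPOCK1 (adjusted p = 0.0457) and SPARCL1 (0.0286) were lost at an adjusted p of 0.01. Among 5 other thrombospondin and tenascin genes, THBS2 (-0.84) and THBS3 (-0.48) were negative and 3 were not called. NOV, the other CCN gene in the table and below the level set for naming, was at -1.43 with a level of 0.3996 CPM and an adjusted p of 0.0395. Of 3 relatives of periostin and CCDC80, SRPX (-0.82) was negative and 2 were not called. The 15 other genes of fibrillin microfibrils and elastic fibres gave 4 negative, 1 positive and 10 uncalled, with a median of -0.36. The called share of 33.3% was below that of all genes. LTBP1 (-0.86) and LTBP3 (-0.37), which hold TGF-beta in the matrix, and the fibrillin FBN2 (-0.21) were negative, and the fibulin FBLN1 (0.15) was positive in the authors' deposited table.

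Genes that build and crosslink matrix fibres were negative in 10 of 20 cases, positive in 1 and not called in 9. Their median log2 fold change was -0.34, against -0.03 over all genes. SERPINH1, the collagen chaperone, was at -0.80 with 322 CPM, PCOLCE2 at -0.72, FKBP10 at -0.59 and the lysyl oxidase LOXL2 at -0.47 in the authors' deposited table. The lysyl hydroxylase PLOD2 was positive at 0.17. Surface receptors that bind the members gave 3 negative and 3 positive of 13, 7 did not pass, and the median was 0.01. Their called share, 46.2%, lay near the 39.5% of all genes. The thrombospondin receptor genes CD47 and CD36 were at 0.45 and -0.54. The fibronectin receptor subunit ITGA5 was at -0.56 and the endocytic receptor LRP1 at -0.60, whereas ITGA4 (0.24) and ITGB5 (0.14) were positive in the authors' deposited table.

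Factors and targets of the YAP and TEAD pathway, leaving out CTGF and CYR61, gave 12 negative and 7 positive of 25, 6 did not pass, and the median was -0.21. The called share was 76%, against 39.5% of all genes. This list too was abundant, with a median level of 46.2 CPM against 23.5 CPM over all genes, and the share was not matched for level. ANKRD1 (-3.39) and MYOF (-2.55), at 3.26 and 4.95 CPM, F3 (-1.37) and DLC1 (-1.22) were negative in the authors' deposited table. The positive genes were YAP1 (0.24), WWTR1 (0.20), which encodes TAZ, TEAD4 (0.19), the YAP-inhibiting kinases LATS1 (0.38) and LATS2 (0.44), AMOTL1 (0.58) and FOXF2 (0.40). Other components of the pathway were negative, among them AMOTL2 (-0.47) and AJUBA (-0.48). LATS2 and AMOTL1 are named by the fixed rule, whereas the other 5, AMOTL2, AJUBA and the TEAD genes that follow were named after their values were seen. The TEAD factors themselves were split, with TEAD3 (-0.84) and TEAD2 (-0.37) negative and TEAD1 (-0.12, adjusted p = 0.233) not called.

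SRF, its MRTF partners and their targets gave 16 negative and 1 positive of 20, 3 did not pass, and the median was -0.36. The called share was 85%, against 39.5% of all genes, of which 22.2% were negative. The list was abundant, with a median level of 55.6 CPM against 23.5 CPM over all genes. ACTG2 (-1.17), EGR1 (-1.16), CALD1 (-1.05) and FOS (-0.96) were lower with more TFDP1 transcript in the authors' deposited table. EGR1 and FOS are immediate-early genes. Their approximate standard errors were 0.173 at 508 CPM and 0.120 at 55.8 CPM. The medians near the similar levels of CYR61 and SPARC were 0.043 and 0.062, so EGR1 and FOS were measured less precisely. SRF itself, named whatever its value, did not pass (0.05, adjusted p = 0.365). The MRTF genes were split, with MKL2 positive at 0.37 and MKL1, named after its value was seen, negative at -0.18. Genes listed for the TGF-beta response, not all of which TGF-beta induces, gave 6 negative and 1 positive of 12, and 5 did not pass. Their median was -0.32, with a called share of 58.3% against the same 39.5%. TIMP1 (-0.75), ID1 (-0.49), ID3 (-0.40) and TGFB1 (-0.38) were negative and BHLHE40 (0.33) positive in the authors' deposited table.

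**Figure D5:**
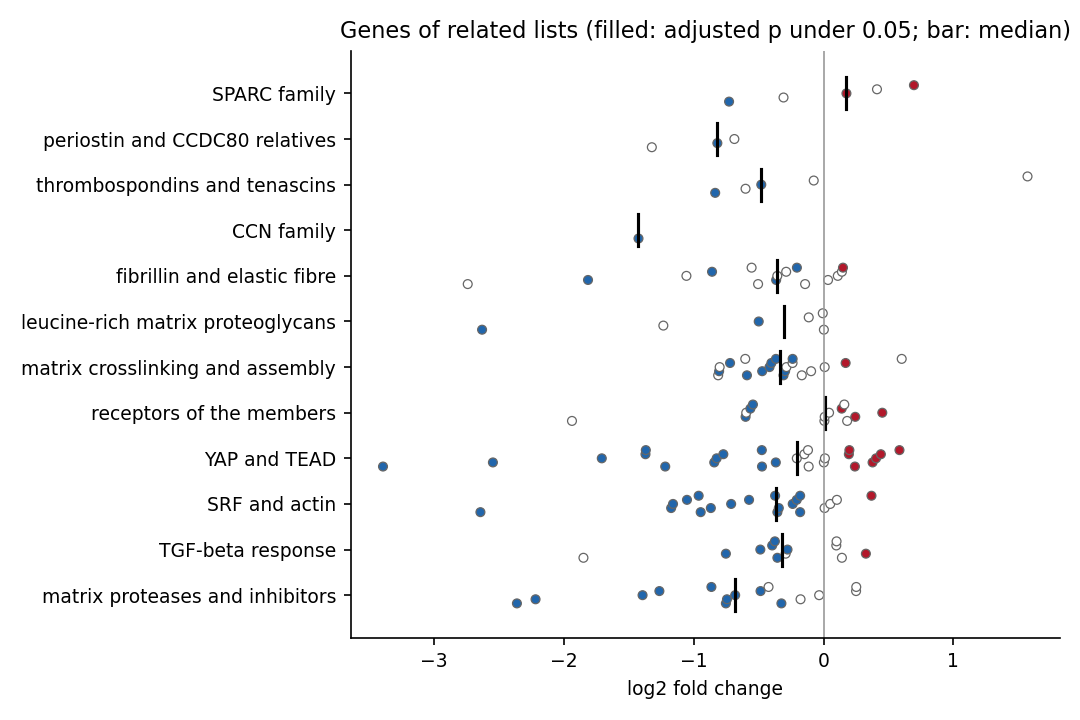
Log2 fold change (horizontal axis) of every gene of 12 related lists (vertical axis), filled where the adjusted p was under 0.05 (blue negative, red positive), with a black bar at the median of each list. The SRF and actin list has 16 filled points left of 0 and 1 right of it, while receptors of the members have 3 on each side.

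Markers of other cell types were read against the 22.2% negative and 17.3% positive calls over all genes. Among 6 further fibroblast markers, 5 were negative and 0 positive, with PDGFRA at -1.36, S100A4 at -1.30, PDPN at -0.53 and VIM at -0.30 in the authors' deposited table. Their summed level was about 574 CPM with more TFDP1 transcript and 738 CPM with less. VIM and PDPN, at mean levels of 487 and 143 CPM, made up most of this sum. COL1A2, COL3A1, DCN, LUM and FAP were not rows of the table. Epithelial markers gave 3 negative and 0 positive of 6, with KRT8 at -2.94, KRT18 at -0.52 and EPCAM at -4.18 with a level of 0.515 CPM, and summed levels of 41.2 and 76.7 CPM. CDH1, KRT19 and KRT7 were not rows of the table. Neural markers, of neurons and of their progenitors, gave 4 negative and 2 positive of 9, with summed levels of 1345 and 1279 CPM. SOX2 (0.46), named with NES after their values were seen, made up most of this sum, at about 1089 and 790 CPM, and the other 8 markers summed to 256 and 489 CPM. Among these NES was at -0.90, TUBB3 at -1.13, NEFL at -1.27, SYP at 1.71, and DCX at -6.74 with a level of 0.108 CPM. Of 16 blood markers 6 were in the table, with KIT (-0.98) negative and ITGA2B (0.49) positive, and of 8 endothelial markers 2 were, both uncalled and under 1 CPM. The defining blood markers PTPRC, GATA1 and SPI1 were not rows of the table, although the line is of leukaemic origin. The part of other cell states in the values of the matrix genes was not tested.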

How the data were processed

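Poly(A) RNA from 6 samples (3 against 3) was compared. Trimmomatic, HISAT2, featureCounts and edgeR were used with hg38 and dm6, per the submitters' processing notes, which list no version. Library scaling, strand setting and filters are not stated in those sources. As for units, the authors' deposited columns are a log2 fold change, a log2 CPM level, a likelihood ratio (a score per gene, as deposited) and p-values with FDR, per the file headers. Their FDR values imply an adjustment over more rows than the 15794 analysed. The likelihood ratio is on 1 degree of freedom. Depths are unknown.

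No new test across samples was made. A gene counts as called where the deposited FDR is under 0.05. The approximate standard error is the absolute log2 fold change over the square root of the likelihood ratio, and 95% intervals are 1.96 of these. The formula was tried on simulated counts that held counting noise only, with no added spread between replicates. That trial does not show how well the intervals cover in these data. Group levels solve the mean CPM and the fold change for 2 groups of equal weight, an approximation that is coarse for scarce genes. Genes of like level lie within 0.5 log2 CPM. Positions and union exon lengths came from GENCODE 29 (GRCh38). The members and the 17 gene lists (226 symbols, 165 in the table, 8 in more than 1 list) were chosen with earlier results of these data known. The text names TFDP1, all members and the 5 genes nearest SPARC in log2 fold change and log2 CPM. For each list it names the 4 called genes of largest change at 1 CPM or more and up to 2 of opposite sign. Marker lists instead name up to 4 called genes at any level. Other genes given with values are marked where named, with the reason or as chosen after their values were seen. A comparison of the members' proteins, planned at the start, was not made. Alternatives were stricter FDR, adjustment over the rows analysed, re-centring with p recomputed, a 1 CPM filter and a 2-fold minimum. Tools were Python 3.11.15, pandas 2.3.3, numpy 2.4.6, scipy 1.17.1 and matplotlib 3.10.9.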

Additional observations from a re-analysis of the deposited data

How the results depend on the processing

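All 9 members kept the sign of their log2 fold change when fold changes were re-centred on the median gene (shift -0.03) or on the median of 77 ribosomal protein genes (shift -0.08). Both shifts were smaller than the smallest change of a member, the -0.18 of FBN1, so no sign could have changed. FBN1 was not called at an adjusted p of 0.01 or with ribosomal re-centring; the other 8 were called under every alternative but the 2-fold minimum. With a 2-fold minimum, 5 members were negative and 0 positive, against 576 and 123 of all genes and 24 and 1 of the 165 genes of the related lists, whose counts without it were 78 and 19. With ribosomal re-centring, 4226 genes were positive in place of 2738, and 62.5% of called genes were positive in place of 43.9%. Counts of the single lists are small, and 22 of 34 moved by over 1.5 times with the 2-fold minimum, 5 at an adjusted p of 0.01 and 4 with ribosomal re-centring. The 34 include counts that were 0 at the start, which a stricter rule cannot move. No paired analysis was possible because the table gives no values per sample, and leaving out replicates was not run for the same reason. Precision fell with level: the median approximate standard error was 0.23 near the level of POSTN and 0.043 near that of CYR61.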

Other observations

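Proteases and inhibitors that act on the matrix gave 10 negative and 0 positive of 15, 5 did not pass, and the median log2 fold change was -0.68. Their called share was 66.7%. Over all genes 39.5% were called, 22.2% negative and 17.3% positive. Of the 15 proteases and inhibitors, 3 lay under 1 CPM, and with the 1 CPM filter 7 were negative and 0 positive. With ribosomal re-centring 10 were negative and 2 positive. The gelatinase MMP2 was at -2.36 with a level of 2.43 CPM, the urokinase gene PLAU at -0.86 and MMP24 at -0.74 in the authors' deposited table. The inhibitor TIMP1 was at -0.75 with 74.4 CPM, so that proteases and an inhibitor of them were negative together. Matrix proteoglycans gave 2 negative and 0 positive of 6, and 4 of the 6 lay under 1 CPM. Their called share, 33.3%, was below that of all genes. The negative genes were FMOD (-2.63), at 0.791 CPM and below the level set for naming, and HSPG2. The basement membrane proteoglycan HSPG2 was at -0.50 with 51.6 CPM and an adjusted p (edgeR) of 2.71e-04 in the authors' deposited table.

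The 5 genes nearest to SPARC in log2 fold change and log2 CPM, over this 1 comparison, were APOE, PPP2R2B, OLFM3, LAMA2 and EGLN3. APOE lay at a distance of 0.645 log2 units, with a log2 fold change of -4.11 at 55.3 CPM in the authors' deposited table. The other 4 lay at 1.94 to 2.09 log2 units, with fold changes between -1.75 and -1.48.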
